A study of Homo sapiens with 3 samples.

Results

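Transcripts of 9 heat shock chaperone genes were followed through 3 lists of RNA segments crosslinked to HNRNPA0, which belongs to the hnRNP A/B group of RNA-binding proteins. They are HSP90AA1, HSP90AB1, HSP90B1, HSPA8, HSPA5, HSPA9, HSPA4, HSPD1 and HSPE1, which encode members of the HSP90, HSP70, HSP60 and HSP10 families. A peak was counted for a gene when the deposited peak name carried the Ensembl gene ID that lies at the RefSeq position of that gene. This gave 9 of 6583 gene IDs, and 54, 59 and 50 of the 15661, 15486 and 17791 distinct peaks in replicates 1, 2 and 3, 163 in all. The IDs were ENSG00000080824.18 for HSP90AA1, ENSG00000096384.19 for HSP90AB1, ENSG00000166598.12 for HSP90B1, ENSG00000109971.13 for HSPA8, ENSG00000044574.7 for HSPA5, ENSG00000113013.12 for HSPA9, ENSG00000170606.13 for HSPA4, ENSG00000144381.16 for HSPD1 and ENSG00000115541.10 for HSPE1. All 163 peaks lay on the strand of their gene.

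The 3 samples form 1 group. HEK293T cells, a human embryonic kidney line with the SV40 large T antigen and labelled as wild type, were transfected with 750 ng of a vector coding for HNRNPA0 with an HA tag, then irradiated with UV light at 254 nm. RNA was recovered with anti-HA beads by easyCLIP, a crosslinking and immunoprecipitation method, and replicates were told apart by an adapter barcode and processed together after that ligation. The tagged protein came from the vector and not from its own gene, and the labels do not say that the replicates came from separate cultures, so each SD below measures the spread between these samples, which may be technical. No sample without the tagged protein and no RNA level was analysed here, so binding, abundance of the transcript and RNA recovered without the protein cannot be told apart.

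Heat shock chaperones are ATP-driven or ATP-linked helpers that bind unfolded or unfinished proteins and let them fold. HSP70 proteins hold short exposed stretches, HSP90 proteins act later on kinases, receptors and other clients, and the HSP60 chaperonin encloses a protein in a chamber that HSP10 closes. Cytosol, endoplasmic reticulum and mitochondria each have their own set, made from nuclear genes. Of the genes studied here, HSP90AA1, HSP90AB1, HSPA8 and HSPA4 encode cytosolic proteins, HSP90B1 and HSPA5 proteins of the endoplasmic reticulum, and HSPA9, HSPD1 and HSPE1 proteins of the mitochondrial matrix.

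The value used is the read number, the whole number that ends each peak name in the deposited lists, taken as the reads in that peak. Some peaks border one another and could share reads, so a sum over a gene is a description and carries no counting interval. Read numbers of nuclear-encoded peaks summed to 100038, 99141 and 114203 in replicates 1, 2 and 3, and mitochondrial peaks took 62.8%, 63.1% and 48.3% of all read numbers. Peaks of the 3 lists with the same gene ID that overlapped by 1 nt or more were joined into regions, and a region with a peak in every replicate is called recurrent.

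Every one of the 9 genes had a recurrent region, against 21.6% of all gene IDs with a peak. The genes were chosen with earlier results of these data known, so their recurrence is a description only. Of their 86 merged regions, 23 (26.7%) were recurrent, 18 were found in 2 replicates and 45 in 1, against 6.26% recurrent among the merged regions of all gene IDs. The genes together took 1.11%, 1.37% and 1.07% of the nuclear-encoded read number, a mean of 1.18% ± 0.165 (SD, n = 3). HSP90AA1 alone, with each of its bordering peaks counted, accounted for 42.3%, 52.0% and 59.5% of their sum. The other 8 genes took 0.577% ± 0.126 of the nuclear-encoded read number (SD, n = 3). Up to read numbers of 49, recurrence was higher in each higher class of read number, as the plot of recurrence by read number shows. Chaperone peaks with read numbers of 20 to 49 lay in a recurrent region in 13 of 14 cases, against 87.3% of such peaks of other nuclear-encoded genes. At read numbers of 10 to 19 the share was 51.6% of 62 peaks, against 57.2% elsewhere, and at 5 to 9 it was 38.6% of 57 peaks, against 22.0% elsewhere. At 50 or more it was 85.7%, or 12 of 14 chaperone peaks, against 90.1% elsewhere, and both peaks outside a recurrent region belonged to HSP90AA1. All 14 belonged to HSP90AA1 or HSP90AB1, and 8 of them were parts of a single HSP90AA1 region, so they are not separate cases.

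**Figure D1:**
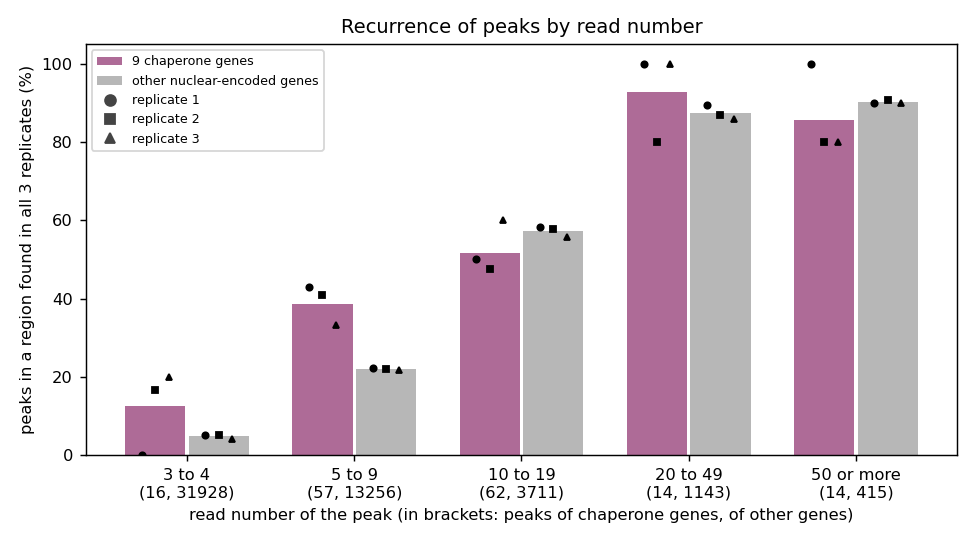
Share of peaks lying in a region found in all 3 replicates (vertical axis, %) by class of read number (horizontal axis) for the 9 chaperone genes and for other nuclear-encoded genes; bars pool the 3 lists, points are replicates and the numbers in brackets under each class count its chaperone and other peaks. The share is 92.9% for chaperone peaks with 20 to 49 reads, 12.5% for those with 3 to 4 and 85.7% for those with 50 or more, against 87.3%, 4.84% and 90.1% for other genes. Chaperone peaks with 50 or more belong to HSP90AA1 or HSP90AB1 only.

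HSP90AA1, the stress-inducible cytosolic HSP90, had the highest peaks of the set. Its highest peak had read numbers of 210, 212 and 224 in replicates 1, 2 and 3, a mean of 215 ± 7.57 (SD, n = 3). It ranked 4 by mean highest read number among nuclear-encoded gene IDs. By position, the 3 IDs above it lie at the noncoding genes XIST, KIF5C-AS1 and TRU-TCA1-1, the last with the deposited ID ENSG00000012061.15. A name given by position need not be the gene that a deposited ID denotes. The 3 below it lie at AMOT, which encodes the scaffold protein angiomotin, NUCKS1, which encodes a chromatin-associated protein, and RN7SK. RN7SK is a small nuclear RNA that restrains transcription elongation. AMOT had 180.0 ± 11.5, NUCKS1 168 ± 4.51 and RN7SK 152 ± 25.4 (SD, n = 3), and the read numbers of HSP90AA1 lay above those of all 3 in every replicate. Of the IDs above it, XIST had 393, 405 and 770 in replicates 1, 2 and 3. KIF5C-AS1 had 350, 265 and 128, and TRU-TCA1-1 had 134, 258 and 335. HSP90AA1 was thus above KIF5C-AS1 in replicate 3 and above TRU-TCA1-1 in replicate 1, and its rank by mean does not hold in each replicate.

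The high peaks of HSP90AA1 stood side by side in a single recurrent region of 217 nt on chromosome 14 from 102084782 to 102084998 (hg38), on the minus strand. That region is 0.368% of the gene interval. With each touching peak counted, it held 84.3%, 83.2% and 78.9% of the read number of the gene, though such peaks could share reads. Only listed peaks enter that share, and the weakest listed peak of the gene had a read number of 42. It was listed as 2 touching peaks in replicate 1, with read numbers of 210 and 187, and as 3 in the other replicates, with 177, 212 and 200 in replicate 2 and 140, 207 and 224 in replicate 3. The edge nearer to the 5' end of the gene was position 102084998 in all 3 lists. A further recurrent region from 102083071 to 102083203 had read numbers of 74, 49 and 42. A short stretch from 102085298 to 102085323 had read numbers of 70 and 111 in replicates 2 and 3 and no peak in replicate 1. The summed read number of HSP90AA1 was 471, 708 and 724, so replicate 1 was low in the sum while its highest peak was close to the others. When a run of adjoining peaks was represented only by its tallest member, the sums were 284, 331 and 377. The 217 nt region then gave 210, 212 and 224 of them.

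**Figure D2:**
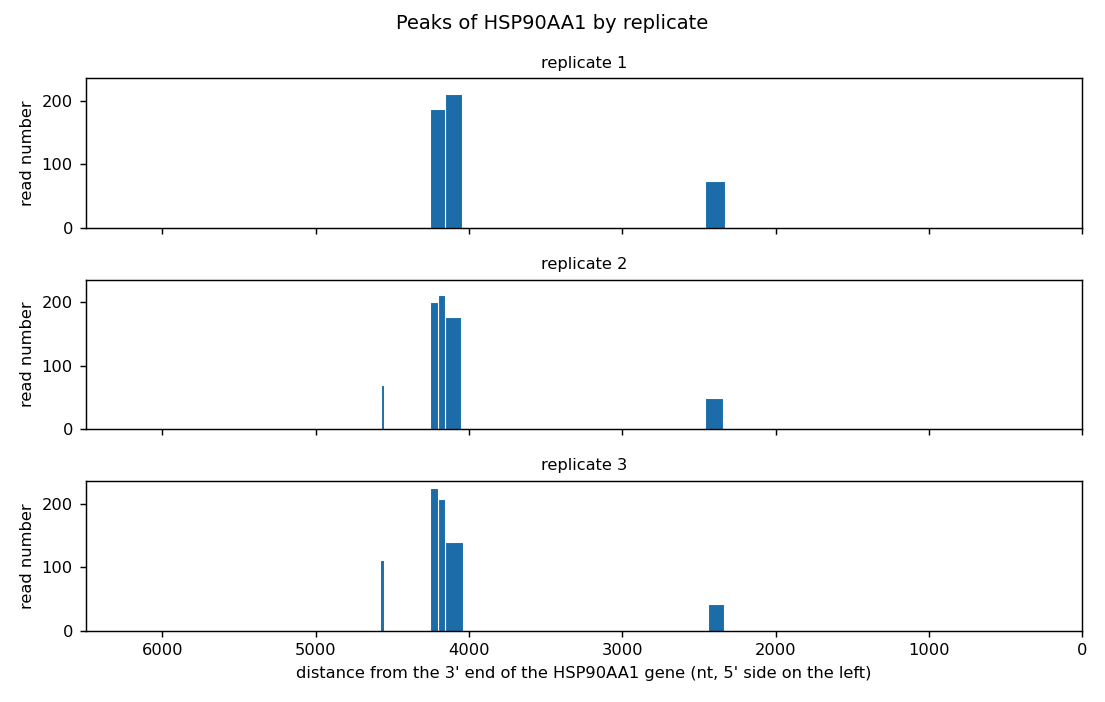
Read number (vertical axis) of each HSP90AA1 peak against its distance from the 3' end of the gene in nt (horizontal axis, 5' side on the left), with 1 panel per replicate and bars as wide as the peaks. The touching peaks that begin about 4040 nt from the end reach 210, 212 and 224, and the narrow peak to their left is listed in replicates 2 and 3.

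No HSP90AA1 peak lay outside the downstream form of the gene. The RefSeq interval spans 59008 bp from 102080742 to 102139749, because a start far upstream is included. Another RefSeq start lies at 102087044, and the 6303 bp from there to the 3' end, 10.7% of the interval, held all 13 peaks. Along that shorter stretch the peaks were centred between 27.5% and 62.1% of the way from the 5' end, so none was near either end. The intervals hold introns too, and where in the messenger RNA a peak falls was not analysed here.

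HSP90AB1, the constitutive cytosolic HSP90, had a lower highest peak with little spread between replicates. Its highest peak had read numbers of 59, 58 and 59, against which the highest peak of HSP90AA1 was 3.67 ± 0.119 times as high (SD, n = 3). It lay in a recurrent region on chromosome 6 from 44250291 to 44250484 on the plus strand, 54.5% of the way along the gene. That region held 49.2%, 61.6% and 60.2% of the read number of HSP90AB1, whose sums spread more, at 120, 164 and 98. A recurrent region near the 3' end, from 44253529 to 44253699, ended 184 nt before the end of the gene and had read numbers of 37, 43 and 24. HSP90B1, the HSP90 of the endoplasmic reticulum, reached 17, 19 and 17 at its highest peaks, so the groups of values of the 3 HSP90 genes did not overlap. HSP90B1 had 4 recurrent regions spread from near its start to near its end, on chromosome 12 from 103931521 to 103931624, 103938340 to 103938452, 103946901 to 103946942 and 103947308 to 103947414. Their highest read numbers were 17, 10 and 5 in the first, 13, 19 and 17 in the next, 10, 8 and 8 in the third and 17, 10 and 10 in the last. Only the region in the middle of the gene was higher in replicates 2 and 3 than in replicate 1.

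HSPA8, the constitutive cytosolic HSP70 that also uncoats clathrin vesicles, had many low peaks and no dominant one. Replicates 1, 2 and 3 had 11, 12 and 7 peaks, with highest read numbers of 11, 10 and 14 and sums of 89, 82 and 61. Of its 17 merged regions 4 were recurrent, and the strongest of them, on chromosome 11 from 123058309 to 123058444, held 12.4%, 9.76% and 23.0% of the read number of the gene. HSPA8 is also the host of small nucleolar RNAs, short RNAs that lie in introns and guide chemical modification of ribosomal RNA. The recurrent region from 123059334 to 123059420 overlapped SNORD14C (123059335 to 123059422), with read numbers of 8, 6 and 11, and peaks in replicates 1 and 3 with 6 and 8 overlapped SNORD14E (123058077 to 123058156). SNORD14D held no HSPA8 peak. Peaks over these small RNAs made up 15.7%, 7.32% and 31.1% of the HSPA8 read number. A separate gene ID at SNORD14C, ENSG00000202252.1, had 1 peak, in replicate 1 with a read number of 5, which overlapped an HSPA8 peak. The HSPA8 peaks themselves do not tell the small RNA from the intron of the messenger precursor.

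Each of the 3 other HSP70 genes had 1 recurrent region. HSPA9, which drives protein import into the mitochondrial matrix, had read numbers of 16, 17 and 17 at its highest peaks and sums of 104, 80 and 90. Of its 20 merged regions, 15 were found in 1 replicate, as were 8 of 9 in HSPA5 and 4 of 7 in HSPA4. Over all gene IDs, 81.1% of merged regions were found in 1 replicate. HSPA9 had its recurrent region on chromosome 5 from 138556028 to 138556112, with read numbers of 11, 15 and 6. Its highest peaks were in different places: replicate 1 had its highest at 138561582 to 138561650, while replicates 2 and 3 shared 138555460 to 138555593. A peak of replicate 1 with a read number of 5 overlapped SNORD63, a small nucleolar RNA in an HSPA9 intron. A separate gene ID at SNORD63, ENSG00000206989.1, had read numbers of 3 in replicate 1 and 3 in replicate 2. HSPA5, the HSP70 of the endoplasmic reticulum known as BiP and a central target of the unfolded protein response, had the lowest peaks of the set. Its highest read numbers were 6, 5 and 3 and its sums 16, 19 and 6, with replicate 3 lowest. All of its highest peaks fell in the same recurrent region, on chromosome 9 from 125236503 to 125236637, apart from a peak of equal read number elsewhere in replicate 3. HSPA4, a large cytosolic HSP70 relative of the HSP110 group that exchanges nucleotide on HSP70, had highest read numbers of 8, 9 and 8 and sums of 24, 34 and 15. Its recurrent region lay on chromosome 5 from 133104519 to 133104618 with read numbers of 7, 9 and 7, which is 1831 nt before the end of a gene of 54437 bp.

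HSPD1, the mitochondrial chaperonin HSP60, had the most recurrent regions of the 9 genes, and HSPE1, its lid HSP10, had few peaks. HSPD1 had 12, 11 and 11 peaks in replicates 1, 2 and 3, with sums of 202, 183 and 161 and highest read numbers of 29, 38 and 22. Its 6 recurrent regions were spread along the gene, from 21.7% to 86.2% of the way from the 5' end. Those on chromosome 2 from 197488455 to 197488492 and from 197489001 to 197489056 were nearly constant, with read numbers of 15, 14 and 14 and of 15, 17 and 16. In its highest peak, the region from 197497206 to 197497393 varied most, with 18, 38 and 10. Replicate 1 listed it as peaks with read numbers of 11, 14 and 18, and replicate 2 as a single peak of 183 nt. Replicate 3 had a peak of 26 nt there. The region held 21.3%, 20.8% and 6.21% of the HSPD1 read number in replicates 1, 2 and 3. HSPE1 had sums of 20, 15 and 16 and highest read numbers of 10, 6 and 5. Its recurrent regions ran from 197501074 to 197501239, with 10, 6 and 5, and from 197503038 to 197503113, with 6, 4 and 5.

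HSPD1 and HSPE1 stand head to head and are transcribed away from each other from a shared promoter. Between the RefSeq ends of the genes lie 104 bp on chromosome 2 from 197500275 to 197500378 (GRCh38.p14, plus strand), of which 74.0% are G or C. The sequence of this gap from RefSeq is shown because it is the point that separates the peaks of the pair, minus-strand peaks of HSPD1 on one side and plus-strand peaks of HSPE1 on the other.
Gap between HSPD1 and HSPE1: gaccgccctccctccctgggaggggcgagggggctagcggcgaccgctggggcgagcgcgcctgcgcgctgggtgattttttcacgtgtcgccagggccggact
Of all chaperone peaks, 1 fell in a RefSeq promoter window, which reaches from 250 bases before a start to 50 after it. It was a weak HSPE1 peak of replicate 3 from 197500417 to 197500431 with a read number of 3. The 12 bases of that peak inside the window are in capitals at the end of the 30 bases from 197500399 to 197500428, shown as the only letters under a chaperone peak in the reference used here.
Start of HSPE1: acactagagcagagtacgAGTCTGAGGCGG
The summed read number per kb of gene interval was 14.8, 13.4 and 11.8 for HSPD1 against 6.51, 4.88 and 5.21 for HSPE1, a ratio of 2.42 ± 0.274 (SD, n = 3). A further gene ID, ENSG00000270757.1, lies at the readthrough gene HSPE1-MOB4, and 8 of its 11 peaks overlapped an HSPE1 peak of the same replicate. Reads of HSPE1 and of the readthrough RNA were therefore not told apart, and with all IDs of the strand merged HSPE1 had 3 recurrent regions in place of 2.

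**Figure D3:**
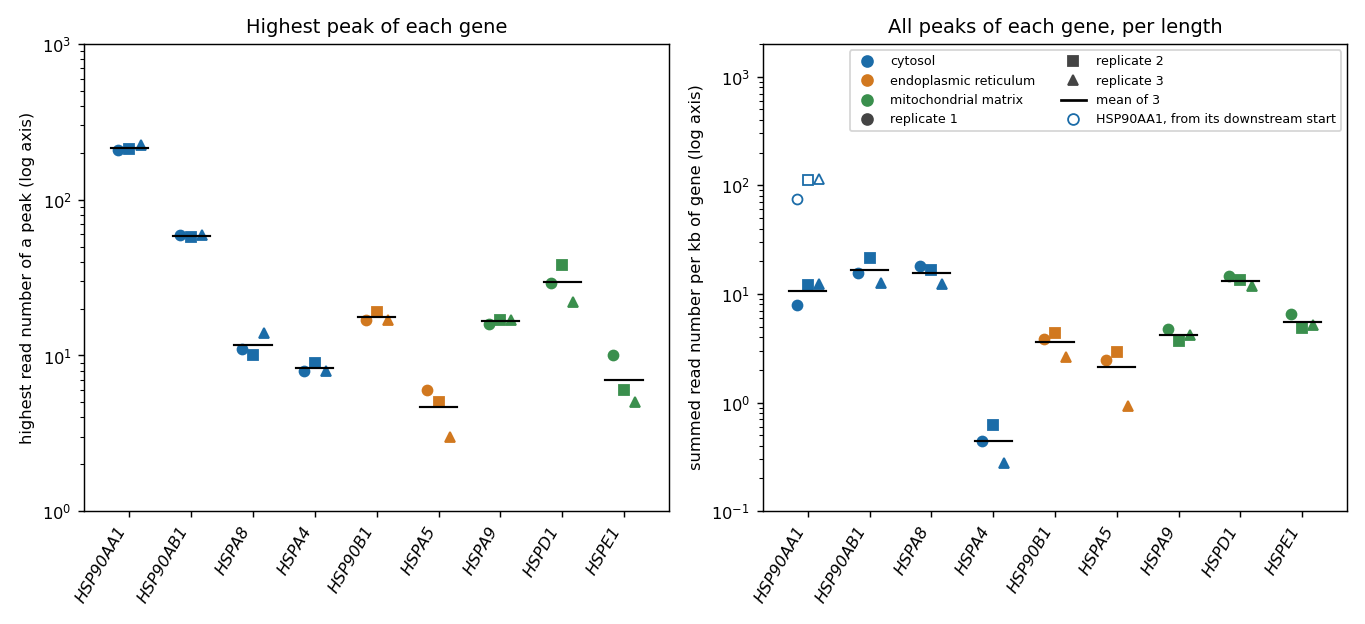
Highest read number of a peak (left) and summed read number per kb of the RefSeq gene interval (right), both on log axes, for each chaperone gene; symbols are replicates, colours the compartment of the protein and lines the mean of 3. HSP90AA1 stands highest on the left at 215, while on the right its 10.8 per kb over the whole interval becomes 101 per kb when counted from its downstream start (open symbols).

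Per kb of gene interval, the 9 genes were ranked with each touching peak counted. HSP90AB1 had 16.6 ± 4.37, HSPA8 15.5 ± 2.93, HSPD1 13.3 ± 1.50 and HSP90AA1 10.8 ± 2.40 summed reads per kb (SD, n = 3), and neighbours in this order overlapped in their replicates. Next came HSPE1 with 5.54 ± 0.862, whose lowest replicate was just above the highest of HSPA9 at 4.22 ± 0.557, then HSP90B1 with 3.60 ± 0.879 and HSPA5 with 2.11 ± 1.05, which overlapped each other. HSPA4, with 0.447 ± 0.175, lay below all others in every replicate. The place of HSP90AA1 depends on the counting. With runs of touching peaks counted once, its sums were 284, 331 and 377, and per kb of the whole interval it overlapped HSPE1. These values also depend on the interval. With each touching peak counted over the 6303 bp from its downstream start, HSP90AA1 had 74.7, 112 and 115 per kb in replicates 1, 2 and 3, above every other gene.

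By compartment, the cytosolic genes held most of the read number, and HSP90AA1 decided this. The 4 cytosolic genes took 63.3%, 72.6% and 73.8% of the sum of the 9 genes, the 2 genes of the endoplasmic reticulum 7.46%, 6.98% and 4.27%, and the 3 mitochondrial genes 29.3%, 20.4% and 21.9%. The cytosolic share was 63.6 ± 7.07 percentage points above that of the endoplasmic reticulum and 46.0 ± 10.4 above that of the mitochondrial genes (SD, n = 3). With runs of touching peaks counted once, these differences were 52.2 and 28.7 points. Without HSP90AA1, a setting chosen after the values were seen, the cytosolic genes took 38.2% ± 4.12, the endoplasmic reticulum genes 12.7% ± 2.01 and the mitochondrial genes 49.2% ± 5.96 (SD, n = 3). The cytosolic minus mitochondrial difference was then -14.5, 0.306 and -18.9 points in replicates 1, 2 and 3, so the order was reversed in 2 of 3. Genes are not replicates of a compartment, and 3 samples allow no sign-flip permutation p below 0.25, so no test was made.

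**Figure D4:**
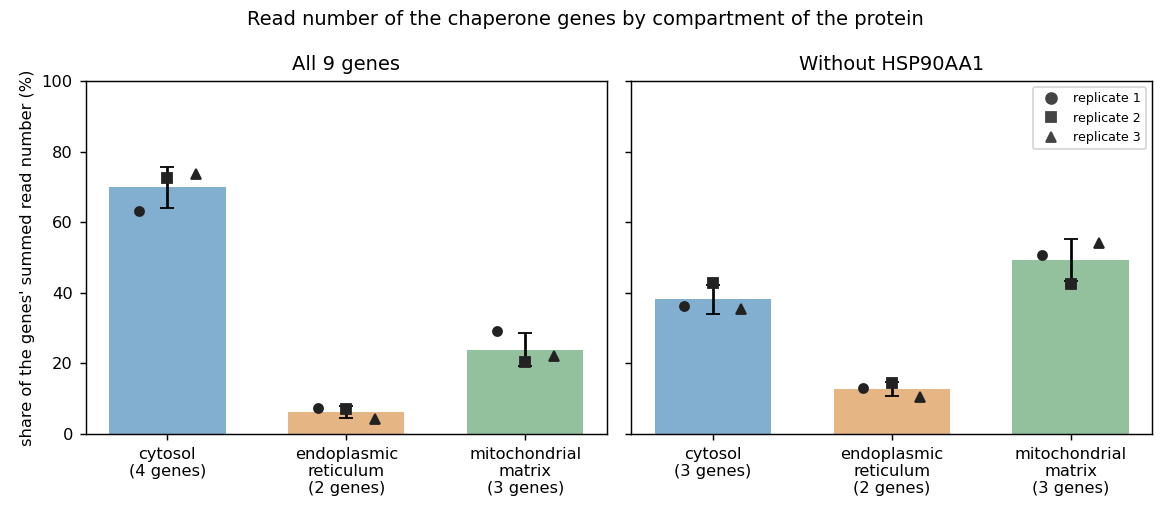
Share of the summed read number of the chaperone genes (vertical axis, %) by compartment of the encoded protein, with all 9 genes (left) and without HSP90AA1 (right); bars are means, error bars SD and points the 3 replicates. The cytosolic mean is 69.9% with all genes and 38.2% without HSP90AA1, and the endoplasmic reticulum mean is lowest in both panels.

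Per kb of gene interval the order of the cytosolic and mitochondrial genes depended on the interval used for HSP90AA1 and on how touching peaks were counted. Cytosolic genes together had 6.85 ± 1.15 summed reads per kb, mitochondrial genes 7.56 ± 0.817 and endoplasmic reticulum genes 3.19 ± 0.924 (SD, n = 3). With each touching peak counted, the cytosolic genes had 5.58, 7.83 and 7.12 in replicates 1, 2 and 3, against 8.49, 7.24 and 6.95 for the mitochondrial genes. The mitochondrial genes were then higher only in replicate 1. With runs of touching peaks counted once, the cytosolic genes held 56.7%, 60.9% and 63.3% of the read number over 126 kb. The mitochondrial genes held 34.2%, 29.8% and 30.7% over 38.4 kb, so per kb they were higher in every replicate. With the shorter form of HSP90AA1, cytosolic genes had 9.59, 13.5 and 12.2, a mean of 11.8 ± 1.98 (SD, n = 3). With each touching peak counted, these values lay above those of the mitochondrial genes in every replicate. With runs counted once over the same 73.4 kb, the cytosolic genes were above only in replicates 2 and 3. Recurrent regions numbered 9 of 32 in the cytosolic genes, 5 of 16 in the endoplasmic reticulum genes and 9 of 38 in the mitochondrial genes. Within families the order depended on the pair of genes. The read number per kb of HSP90AB1 was 4.62 ± 0.465 times that of HSP90B1, and that of HSPA8 was 7.26, 5.63 and 13.3 times that of HSPA5 in replicates 1, 2 and 3. HSPA9 exceeded HSPA5 by a ratio of 1.95, 1.26 and 4.50, the highest value falling in replicate 3, where HSPA5 had only 2 peaks. The cytosolic HSPA4 ran the other way, with 0.441, 0.625 and 0.276 reads per kb, against 2.46, 2.93 and 0.924 for HSPA5, and was lower in every replicate.

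Chaperone peaks were spread along the genes. Peaks centred in the final 10% of the gene made up 25.7% ± 3.31 of chaperone peaks, against 32.2% ± 0.635 in 5969 other protein-coding genes (SD, n = 3). All 13 peaks of HSP90AA1 were among them, because of its long interval, and without that gene the share was 19.2% ± 2.60. HSPA4 had 6 of 11 peaks there, HSP90B1 7 of 17 and HSP90AB1 4 of 11, while HSPA8 had 2 of 30, HSPD1 3 of 34 and HSPA5 0 of 11. Recurrent regions of the chaperone genes had an edge that agreed within 2 nt over the 3 lists in 6 of 23 cases, against 13.8% of recurrent regions of nuclear-encoded genes. They comprise the strongest region of HSP90AA1, 3 regions of HSPD1, the HSP90B1 region that starts at 103946901 and the HSPE1 region that starts at 197503038. The position of the highest point moved by a median of 29 nt between replicates in the chaperone regions, against 22 nt in recurrent regions of nuclear-encoded genes.

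**Figure D5:**
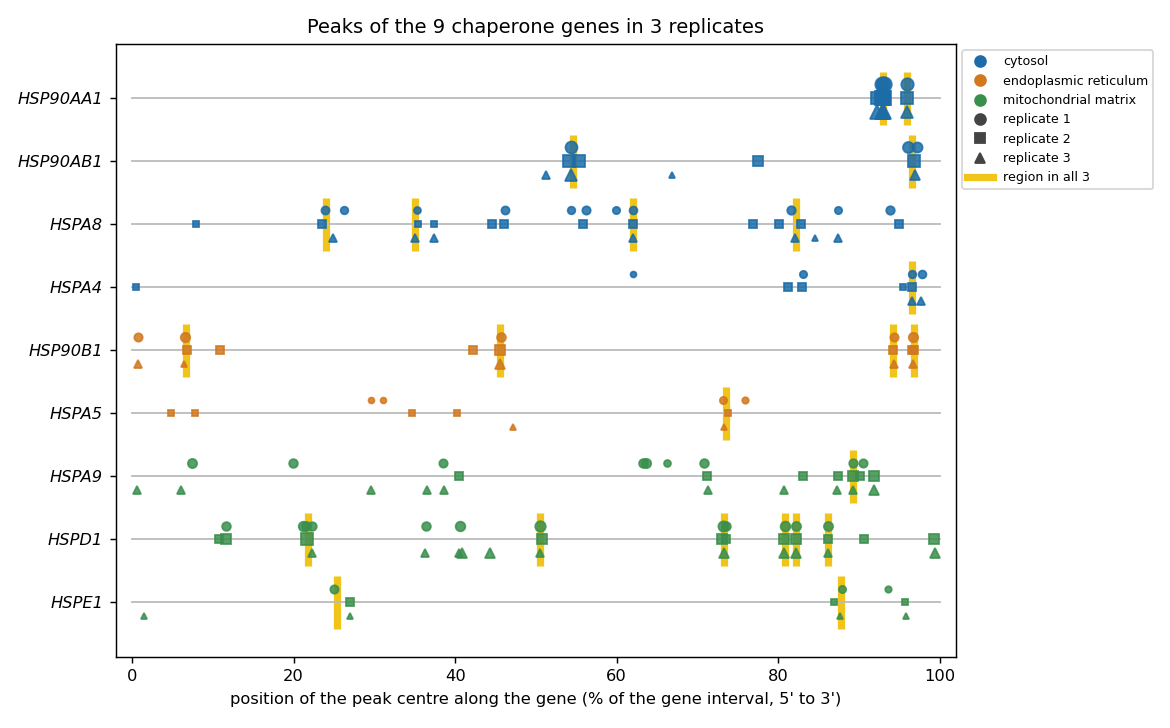
Peak centres along each chaperone gene as percent of the RefSeq interval from 5' to 3' (horizontal axis), 1 row per gene with replicates 1 to 3 from top to bottom; symbol size grows with the log of the read number and yellow bars mark the 23 regions found in all 3 replicates. HSP90AA1 peaks crowd into the final 10% of a long interval, whereas those of HSPD1, HSPA8 and HSPA9 run along most of the gene.

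The lowest read number listed also differed among the genes. It was 42 in HSP90AA1 over the 3 lists and 8 in HSPD1, but 3 in HSPA5, HSPA4 and HSPE1, as in 87.5% of nuclear-encoded gene IDs. No weaker peaks of those genes are in the lists. A read number of 10 did not carry the same deposited p-value in every gene. Whether a limit on listing differed by gene was not tested. Numbers of peaks, and the share of a gene held by its strongest region, should therefore not be compared between genes such as HSP90AA1 and HSPA5. Processed pseudogenes, near copies of these messenger RNAs elsewhere in the genome, took almost none of the signal. RefSeq has 22 pseudogenes named after HSPD1, 28 after HSPE1, 20 after HSPA8, 6 after HSP90AB1 and 5 after HSP90AA1, and of all of these only HSP90AA2P held a peak, with a read number of 3. Nothing in the labels says how reads that match both a gene and its copy were treated.

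Related genes of the chaperone system were counted by list, beside the 21.6% of all gene IDs with a peak that had a recurrent region. Of the genes with a peak, 28.6% of the other HSP90 and HSP70 genes, 25.0% of J-domain genes, 20% of nucleotide exchange factor genes and 33.3% of HSP90 co-chaperone genes had one. With 5 to 20 genes a list, these counts say little about the lists. Of 13 other HSP90 and HSP70 genes, 7 had a peak and 2 a recurrent region, HSPA13, a microsomal HSP70, with 2 regions and sums of 50, 63 and 66, and the inducible HSPA1B with 1 and 19, 16 and 13. HSPA1B has a near-identical copy in HSPA1A, so its reads are uncertain, and HSPA12A and HSPA12B had no such region. HSPA14 is not counted among the 7, because all 24 peaks of its gene ID also lie inside MSANTD7. Of 29 J-domain genes, whose proteins stimulate HSP70, 20 had a peak and 5 a recurrent region, among them DNAJC10, DNAJA2 and DNAJA1 with 1 each, and DNAJA3 and DNAJA4 had none. Among 10 nucleotide exchange factor genes 5 had a peak, and GRPEL2, which serves HSPA9 in mitochondria, was the single gene with a recurrent region, with 2, while BAG1 and BAG2 had none. HSP90 co-chaperones and related factors had a peak in 15 of 19 cases and a recurrent region in 5, led by NASP, which binds histones, with 3, CHORDC1 with 2 and PTGES3, known as p23, with 1, and AHSA1 and CDC37 had none.

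Among 14 folding factors of the endoplasmic reticulum 11 had a peak, but CANX, the membrane lectin calnexin, was the single gene with recurrent regions, with 5 and sums of 211, 166 and 198. CALR and CNPY2 had none. Of 11 mitochondrial quality control genes 7 had a peak and YME1L1, a protease of the inner membrane, held 1 recurrent region, while AFG3L2 and CLPB had none. Of the small heat shock protein genes, including CRYAA and CRYAB, none of 9 found in RefSeq had a peak, and of 3 heat shock factor genes 1 had a peak and none, HSF1 and HSF2 included, a recurrent region. For comparison, 4 of 8 subunit genes of the cytosolic chaperonin TRiC, all 8 with a peak, and 6 of 17 glycolytic enzyme genes, 12 of them with a peak, had a recurrent region. The median summed read number over the genes of a list with a peak, not scaled by gene length, was 77.3 for the 9 chaperone genes, against 32.7 for the 12 glycolytic genes, 28.2 for the 8 TRiC genes and 16 for the 7 other HSP90 and HSP70 genes. The 9 genes were chosen with their peaks known, so their median is a description only.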

How the data were processed

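RNA crosslinked to HA-tagged HNRNPA0 was measured by easyCLIP in 3 replicates of HEK293T cells, which form 1 group by their titles. The authors deposited 1 peak list per replicate, so peaks were called per sample. Each line holds a p-value that the authors deposited without a stated adjustment, all under 0.05, a short interval inside the peak whose coordinates, deposited by the authors, were used as the highest point, and a name that ends in the read number. Per the submitters' processing notes the build is hg38 and the tools include bedtools and deepTools, with no version. The adapters carried random bases as molecular identifiers, per the labels; whether they were used to remove duplicates, the aligner and the peak caller are not given in the sources used here.

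Python 3.11.15 and pandas 2.3.3 were used. A gene ID was tied to the shortest RefSeq gene (GRCh38.p14) that held at least 90% of its peak centres on the gene's strand, readthrough genes aside. Lines with the same interval and strand were counted once in totals, which dropped 1862 lines over the 3 lists and no chaperone peak. Peaks were merged within a gene ID, and the merging was tested on simulated data. A single group without a control allows no contrast, so values are given with SD over 3 replicates. All 9 genes are named. Up to 3 genes of each partner list with the most recurrent regions and up to 2 without one, in alphabetical order, are named, as are the 3 neighbours on each side of the highest gene. HSPB11 was not found in RefSeq under that symbol. The genes and lists were chosen with earlier results of these data known. Alternatives were the overlap, peak threshold, read number minimum, replicates, touching peaks and denominator.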

Additional observations from a re-analysis of the deposited data

How the results depend on the processing

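Of 49 alternative values, 34 stayed within the limits set, 14 moved further and 1 changed sign. The 9 genes with a recurrent region became 4 when only read numbers of 10 or more were used (HSP90AA1, HSP90AB1, HSP90B1 and HSPD1) and stayed between 7 and 9 in all other settings. The 23 recurrent regions became 12 with that minimum, 15 when peaks had to overlap by 50% of both, and 41 when 2 replicates sufficed, and ranged from 28 to 30 over the pairs of replicates. The share of the nuclear-encoded read number was 0.941%, against 1.18% as reported, with runs of touching peaks counted once, 1.54% in the 50% of each list with the lowest p-values, 0.491% with mitochondrial peaks in the denominator and 0.577% without HSP90AA1. The excess of the cytosolic over the endoplasmic reticulum share was 52.2 points with runs counted once and 25.5 without HSP90AA1, and that over the mitochondrial share 28.7 with runs counted once and -11.0 without HSP90AA1, where it reversed. The share of peaks in the final 10% of the gene was 30.9% in recurrent regions, 19.2% without HSP90AA1 and 61.4% when weighted by read number. The weighted share was 35.2% in other protein-coding genes and 20.8% in the chaperone genes without HSP90AA1. Depth outside peaks is unknown, and genes such as HSPA5, with read numbers of 3 to 6, rest on few reads. Settings without HSP90AA1, without HSPA8 peaks over small nucleolar RNAs (22 regions) and with all gene IDs merged (24 regions) were chosen after the data were seen.
No paired analysis was possible because there is 1 group.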
